A study of Mus musculus with 6 samples.

Results

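A set of 8 genes of the Ly6 family was followed in colon tumours of mice: Ly6d, Ly6a, Ly6c1, Ly6c2, Ly6e, Ly6g, Ly6i and Ly6k. They were chosen by symbol from the 26214 gene rows of the count tables, all 8 were found there, and knockout and wild-type values of these same libraries were known when they were chosen. The knockout against wild-type values of the 8 genes are therefore a description. The tumours came from Trim21 -/- mice (3 libraries) and Trim21 +/+ mice (3 libraries). All 6 libraries came from mice that had received azoxymethane, a carcinogen, and dextran sulfate sodium, which injures the colon lining. Trim21 encodes a ubiquitin ligase that also binds antibodies in the cytosol. No source used here gives the design of the knockout allele, the age and sex of the mice or the doses. The labels call the libraries biological replicates without saying whether each came from its own mouse, so the spread given here is that between these samples.

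Ly6 proteins are small, cysteine-rich proteins of the outer cell surface, most of them held there by a glycosylphosphatidylinositol (GPI) lipid anchor. They share the LU domain with the urokinase receptor and the complement inhibitor CD59. In the mouse many of them serve as antigens by which blood and progenitor cells are sorted, such as Ly6G for neutrophils, Ly6C for monocytes and Sca-1, the product of Ly6a, for stem and progenitor cells. In the colon, Sca-1 appears on epithelium that regenerates after injury with dextran sulfate sodium.

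Knockout libraries held 17937821 to 19987295 reads and wild-type libraries 27085599 to 29742757 reads. Levels are given in CPM, the deposited read count of a gene scaled to the size of its library, with TMM factors that correct library totals for differences in composition. Trim21 itself measured 14.6 ± 3.76 CPM in knockout tumours and 23.2 ± 5.68 CPM in wild-type tumours (SD, n = 3 each), so transcripts of the gene were still counted in knockout libraries. Across all 16281 genes tested with edgeR's quasi-likelihood test, 0% were called higher and 0% were called lower (adjusted p under 0.05), although 1750 had an unadjusted p under 0.05. Of the 8 Ly6 genes, 7 passed the filter on low counts and 0 were called, with adjusted p between 0.322 and 0.734. Ly6i did not pass the filter. Wild-type replicate 3 stood apart by Krt5 and Trp63, markers of stratified squamous epithelium. Krt5 measured 8.27 CPM and Trp63 6.49 CPM there. In the other 5 libraries Krt5 measured 0 to 0.101 CPM and Trp63 0 to 0.0671 CPM. Krt14, also such a marker, did not set it apart, with 23.2 CPM there and 23.9 CPM in knockout replicate 2. Other squamous genes went both ways, with Krt4 and Krt15 highest there and Dsc3 lowest.

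The 8 genes lie in a cluster on chromosome 15 of mm10 (GRCm38), between bases 74762056 and 75159126, a span of 397.1 kb in the GENCODE M21 annotation. Ly6d, at 74762056 to 74763620 on the minus strand, and Ly6g, at 75155240 to 75159126 on the plus strand, are the outermost of the 8, and they had opposite directions. Ly6e, the most abundant, lies next to Ly6i, the least abundant, which follows it in the RefSeq gene order of the locus.

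Per length of exon, Ly6e and Ly6a were by far the most abundant. In RPKM, here the CPM divided by the kilobases of exon in coding transcripts, Ly6e averaged 470.8 in knockout and 526 in wild-type tumours, and Ly6a averaged 319 in knockout and 383 in wild-type tumours. The RPKM ranges of these 2 genes overlapped in knockout tumours and did not in wild-type tumours. Together they made up 89.6% to 92.9% of the summed CPM of the 8 genes in knockout libraries and 91.5% to 93.8% in wild-type libraries. Below them the order differed between the groups. In knockout tumours Ly6g followed with 60.2 RPKM, then Ly6d with 29.97, Ly6c1 with 26.3 and Ly6c2 with 19.5, and the ranges of Ly6d, Ly6c1 and Ly6c2 overlapped while that of Ly6g lay above them. In wild-type tumours Ly6d followed with 65.6 RPKM, then Ly6g with 38.02 and Ly6c1 with 30.4, whose ranges overlapped, and Ly6c2 with 7.39. The ranges of Ly6d and Ly6c2 in the wild type overlapped with no other of these genes. Ly6k and Ly6i were last in both groups, with 0.734 and 0.185 RPKM in knockout tumours and 1.16 and 0.333 RPKM in wild-type tumours, and their ranges did not overlap in either group.

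**Figure D1:**
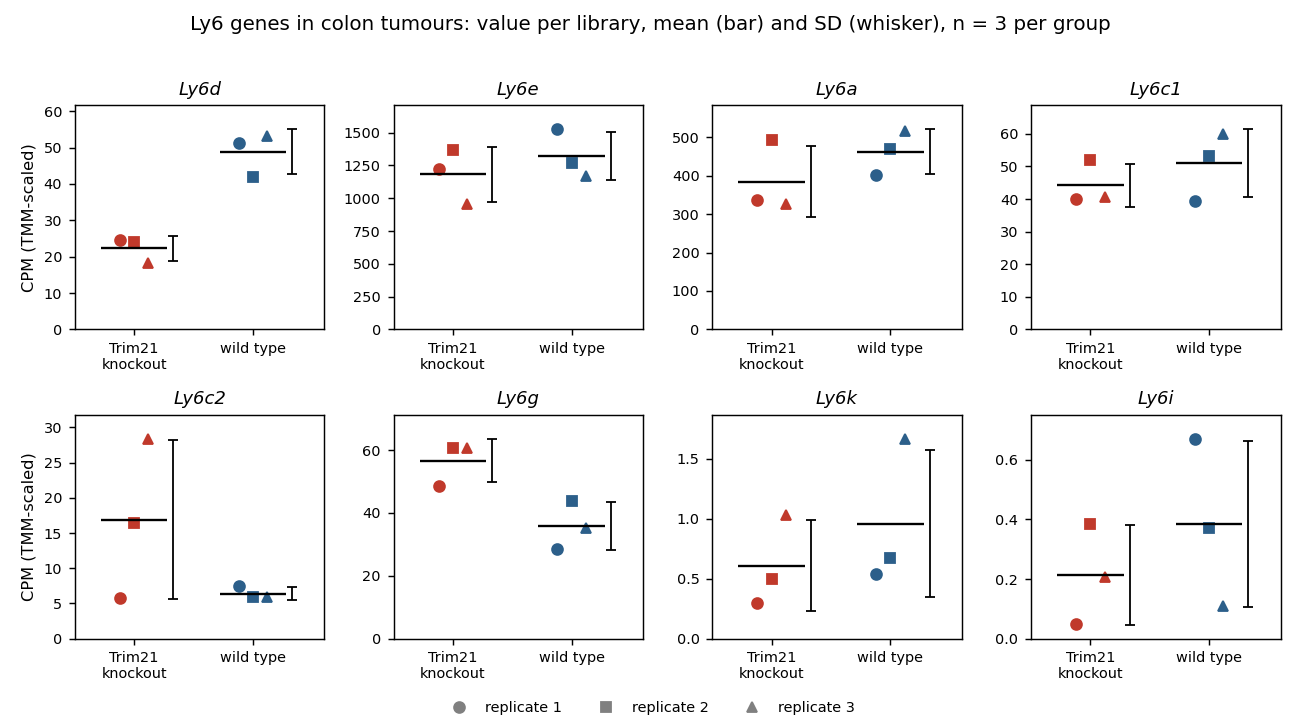
Level of each of the 8 Ly6 genes in CPM (vertical axes, linear from 0) in every Trim21 knockout and wild-type library, with the mean as a bar, the SD as a whisker and the shape of a point giving the replicate. Ly6d was below and Ly6g above all wild-type libraries in every knockout library, while Ly6c2 was spread from 5.80 to 28.4 CPM within the knockout.

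All 3 knockout tumours had less Ly6d than the 3 wild-type tumours. Ly6d is found on stratified epithelia such as epidermis and on lymphoid progenitors bound for the B cell lineage. It measured 24.6, 23.9 and 18.4 CPM in knockout replicates 1 to 3, against 51.4, 41.8 and 53.3 CPM in wild-type replicates 1 to 3. The lowest wild-type library thus stood well above the highest knockout library. The means were 22.3 ± 3.43 CPM in knockout libraries, against 48.8 ± 6.17 CPM in wild-type libraries (SD, n = 3 each), from 1287 reads in knockout and 4203 reads in wild-type libraries. Knockout over wild type, this was a log2 fold change of −1.13 (standard error 0.16), or 2.19-fold lower, and Ly6d did not pass edgeR's test over all genes (adjusted p = 0.322). DESeq2, run as an alternative, called 0.543% of genes lower, Ly6d among them, and 1.41% higher, with none of the 8 Ly6 genes among those. Of the 7 tested Ly6 genes, Ly6d alone lay below wild type in every library, and 8.47% of all tested genes did so. In a bulk tumour sample, fewer cells that express a gene and less RNA per cell cannot be told apart.

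Set against Ly6e in the same library, which removes any effect of scaling, the group difference in Ly6d was also seen. Each Ly6e read came with 0.0201, 0.0175 and 0.0192 Ly6d reads in knockout replicates 1 to 3, against 0.0337, 0.0329 and 0.0457 Ly6d reads in wild-type replicates 1 to 3. Without wild-type replicate 3 the log2 fold change of Ly6d was −1.06, and over the omission of each library in turn it lay between −1.23 and −1.01. Summed over 15 squamous epithelium genes, the level was 170.7, 175.9 and 133 CPM in knockout libraries, against 122, 182 and 250.1 CPM in wild-type libraries, so those sums overlapped between the groups. The largest part of the sum was Sfn, a gene of many epithelia, with 97.99 to 126 CPM in knockout libraries and 77.3 to 124 CPM in wild-type libraries. In wild-type replicate 3 it was 124 of 250.1 CPM. Of 9 squamous genes tested, 5 had a log2 fold change above 0 and 4 below 0, and 0 were called. Krt4, a keratin gene of inner stratified epithelia named after its values were seen, was below wild type in every knockout library, as was Ly6d. It was the only 1 of the 9 squamous genes, or 11.1%, to do so, against 8.47% of all tested genes. Krt4 measured 2.83, 2.42 and 1.19 CPM in knockout replicates 1 to 3, against 9.63, 5.86 and 22.5 CPM in wild-type replicates 1 to 3, with a log2 fold change of −2.56 (standard error 0.56, edgeR adjusted p = 0.333). Krt15, a keratin gene of basal cells, had a log2 fold change of −1.80 and was highest in wild-type replicate 3 at 38.4 CPM, with overlapping groups. Krt13, a further keratin gene of the list, had a log2 fold change of 0.12, also with overlapping groups. Krt5 and Trp63 were at 0 in all knockout libraries and in wild-type replicate 2. B cell genes overlapped as well, with summed levels of 11.4 to 39.8 CPM over 8 genes in the knockout and 3.42 to 29.3 CPM in wild-type libraries. The part of squamous or B cell content in the Ly6d level was not tested.

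The genes whose levels across the 6 libraries were most like those of Ly6d were Tnfsf9, Mrgprb2, Alox15, Tnfrsf19 and Sntb1. Likeness was the mean absolute difference between the log2 CPM of 2 genes, each centred on its own mean over the 6 libraries, among 15035 other genes with a mean of at least 1 CPM. It was 0.0856 for Tnfsf9, which encodes the ligand of the co-stimulatory receptor 4-1BB, and 0.0895 for Mrgprb2, a receptor gene of mast cells. It was 0.123 for the lipoxygenase gene Alox15, 0.127 for Tnfrsf19, a receptor gene known as a Wnt target in intestinal stem cells, and 0.147 for Sntb1, a syntrophin gene. The median over all candidates was 0.571. Mrgprb2, with a mean of 1.31 CPM, lay close to the cut. It had 19, 15 and 13 reads in knockout replicates 1 to 3 and 61, 39 and 55 reads in wild-type replicates 1 to 3. Having been picked for likeness to Ly6d, the 5 genes share by that choice its separation of the groups, a separation seen in 17.9% of all tested genes in either direction. Tnfsf9 measured 4.81, 4.39 and 3.98 CPM in knockout replicates 1 to 3 and 9.76, 7.11 and 10.6 CPM in wild-type replicates 1 to 3. Tnfrsf19 measured 73.7, 70.7 and 43.6 CPM in knockout libraries, against 137, 104.7 and 125.01 CPM in wild-type libraries. The nearest Ly6 gene to Ly6d by this measure was Ly6a at 0.424, and the farthest was Ly6c2 at 1.22.

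**Figure D2:**
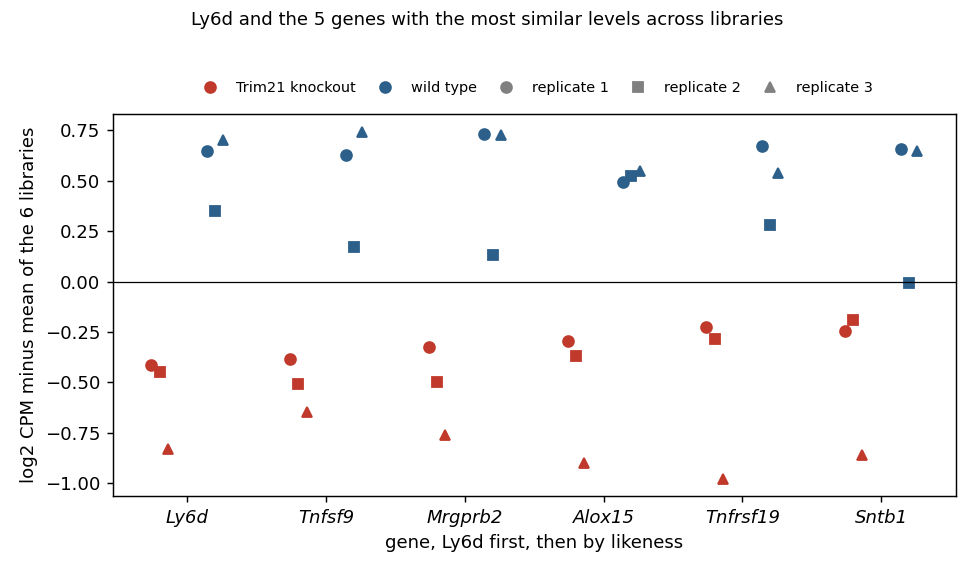
Log2 CPM minus the mean of the 6 libraries (vertical axis) for Ly6d and the 5 genes most like it, in Trim21 knockout and wild-type libraries, with the shape of a point giving the replicate. The 5 genes were picked for this likeness, so the low knockout libraries, with knockout replicate 3 the lowest, follow from the choice.

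Ly6e and Ly6a, the abundant pair, overlapped between the groups. Ly6e is an interferon-induced gene whose product limits the entry of coronaviruses and, in mouse placenta, serves as a receptor for syncytin-A. It measured 1223, 1367 and 955 CPM in knockout replicates 1 to 3 and 1525, 1271 and 1167 CPM in wild-type replicates 1 to 3, with a log2 fold change of −0.16 (standard error 0.16). Ly6a measured 335, 492 and 327 CPM in knockout libraries, against 401, 468 and 517 CPM in wild-type libraries, with a log2 fold change of −0.26 (standard error 0.18). Knockout replicate 2 was the highest of the knockout libraries for both genes, while the highest wild-type library was replicate 1 for Ly6e and replicate 3 for Ly6a. Ly6a reads per Ly6e read ranged from 0.274 to 0.36 in the knockout and from 0.263 to 0.443 in the wild type.

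Because both genes respond to interferon, their levels were set beside the interferon lists. The summed level of 18 genes induced by type I interferon was 323, 1548 and 608 CPM in knockout replicates 1 to 3 and 1639.8, 567 and 681 CPM in wild-type replicates 1 to 3. The library highest for that sum in each group, knockout replicate 2 and wild-type replicate 1, was also highest in its group for Ly6e and for Ly6i. Below it the order of Ly6e differed from that of the sum. The sum was lowest in knockout replicate 1 and wild-type replicate 2, whereas Ly6e was lowest in replicate 3 of both groups. For Ly6i the order rests on 1 to 20 reads per library. Ly6a was highest in knockout replicate 2 too, but in the wild type it was lowest in replicate 1. For 14 genes induced by interferon gamma the summed level was 280.4, 619 and 499.99 CPM in knockout libraries, against 584, 401 and 351 CPM in wild-type libraries, with the same library highest in each group. Of these lists 0 genes were called, and their median log2 fold changes were −0.22 and 0.15, against −0.01 over all tested genes. The part of interferon in the Ly6 levels was not tested.

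Ly6a was also set beside other genes of regenerating colon epithelium. Of 13 such genes tested, 6 had a log2 fold change above 0 and 7 below 0, with a median of −0.02, and 0 were called. Anxa1, the most abundant, measured 304.5, 381 and 366 CPM in knockout libraries, against 360.5, 352 and 442 CPM in wild-type libraries, with the groups overlapping as for Ly6a. Clu, which encodes the secreted chaperone clusterin, measured 156, 214 and 317 CPM in knockout libraries, against 495, 229 and 262 CPM in wild-type libraries.

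Ly6c1 and Ly6c2 are neighbours with almost the same coding sequence, and their levels differed across libraries. Their products form the Ly6C antigen, with Ly6c1 known mainly from endothelium and Ly6c2 from monocytes. Ly6c1, at 75044018 to 75048830 on the minus strand, measured 40.1, 51.9 and 40.5 CPM in knockout replicates 1 to 3 and 39.5, 53.4 and 59.9 CPM in wild-type replicates 1 to 3. Its groups overlapped, and its log2 fold change was −0.21 (standard error 0.18). Ly6c2, at 75108158 to 75111970 on the same strand, measured 5.80, 16.5 and 28.4 CPM in knockout libraries, against 7.45, 5.86 and 5.93 CPM in wild-type libraries. Knockout replicate 1 lay just below the wild-type range, while knockout replicates 2 and 3 lay above it.

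The mean of Ly6c2 was 16.9 ± 11.3 CPM in knockout libraries, against 6.41 ± 0.897 CPM in wild-type libraries (SD, n = 3 each), with a log2 fold change of 1.40 and a standard error of 0.51. It was not called (edgeR adjusted p = 0.418). The value rests on single libraries: leaving out knockout replicate 3 gave 0.79, and leaving out knockout replicate 1 gave 1.81. Within the knockout the highest library exceeded the lowest 4.89-fold, against 1.27-fold within the wild type. Each Ly6c1 read came with 0.145, 0.317 and 0.701 Ly6c2 reads in knockout replicates 1 to 3, against 0.188, 0.11 and 0.0989 in wild-type replicates 1 to 3.

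The first 90 coding bases of both genes are shown because they hold 6 of the 9 mismatches between the coding sequences, by which reads of these genes can be told apart. They come from the GENCODE M21 transcripts, 5′ to 3′ on the minus strand, with the bases that differ in capitals.
Ly6c1: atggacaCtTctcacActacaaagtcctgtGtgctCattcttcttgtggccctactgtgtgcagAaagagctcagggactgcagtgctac
Ly6c2: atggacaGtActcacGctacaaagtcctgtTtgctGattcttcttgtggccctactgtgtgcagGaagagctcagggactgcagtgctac
Over 396 aligned coding bases the 2 genes were 97.7% identical, against 83.8% for Ly6c1 with Ly6a and 63.6% for Ly6c1 with Ly6d. Of all stretches of 50 bases in Ly6c1 transcripts, 32.8% also occur in transcripts of another gene, most often Ly6c2. This share was 14.4% for Ly6c2, 18.97% for Ly6a, 4.76% for Ly6i and 0.448% for Ly6g, and 0% for Ly6d, Ly6e and Ly6k. The stretches were pooled over all annotated transcripts of a gene, coding or not. Ly6c2 had 2733 of them beside 868 exon bases in coding transcripts, and Ly6c1 had 1764 beside 1677. The shares of these 2 genes are thus not on a like base. At 100 bases the share was 10.1% for Ly6c1 and 5.81% for Ly6c2. No source used here says how reads that match several genes were counted, so Ly6c1, Ly6c2 and Ly6a counts are uncertain. These shares do not give the size of that error, which also depends on the level of the gene that shares a stretch. Over the 6 libraries Ly6a averaged 423 CPM, against 47.6 CPM for Ly6c1 and 11.65 CPM for Ly6c2. Stretches of 50 bases in Ly6c2 occur in transcripts of 266 other genes, but most of the shared part is common with Ly6c1. That gene shares 13.9% of the Ly6c2 stretches, of the 14.4% shared in all. At 100 bases only 1 gene, Ly6c1, shares a stretch with Ly6c2. Ly6d shares no stretch at either length.

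Ly6c2 was set beside monocyte genes, and Ly6c1 beside endothelial genes. Of 14 monocyte genes tested, 10 had a log2 fold change above 0, with a median of 0.29, and 0 were called. Their summed level was 817, 1043 and 1033 CPM in knockout replicates 1 to 3 and 727, 898 and 823 CPM in wild-type replicates 1 to 3. The chemokine receptor gene Ccr2, which brings monocytes out of the bone marrow, measured 19.2, 21.9 and 32.5 CPM in knockout libraries, against 12.1, 15.03 and 12.5 CPM in wild-type libraries. It was thus above wild type also in knockout replicate 1, where Ly6c2 was not. Csf1r, the receptor gene for the macrophage growth factor, overlapped, with 43.9, 68.3 and 60.8 CPM in knockout libraries, against 47.8, 46.4 and 53.1 CPM in wild-type libraries. Of 15 endothelial genes tested, 14 had a log2 fold change above 0 and 1 below 0, with a median of 0.25, and 0 were called, while Ly6c1 had −0.21. The gene below 0 was the endothelial cadherin gene Cdh5 at −0.13, and the adhesion molecule gene Pecam1 had 0.28 and the growth factor receptor gene Flt1 0.01. The part of monocyte or endothelial content in these levels was not tested.

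**Figure D3:**
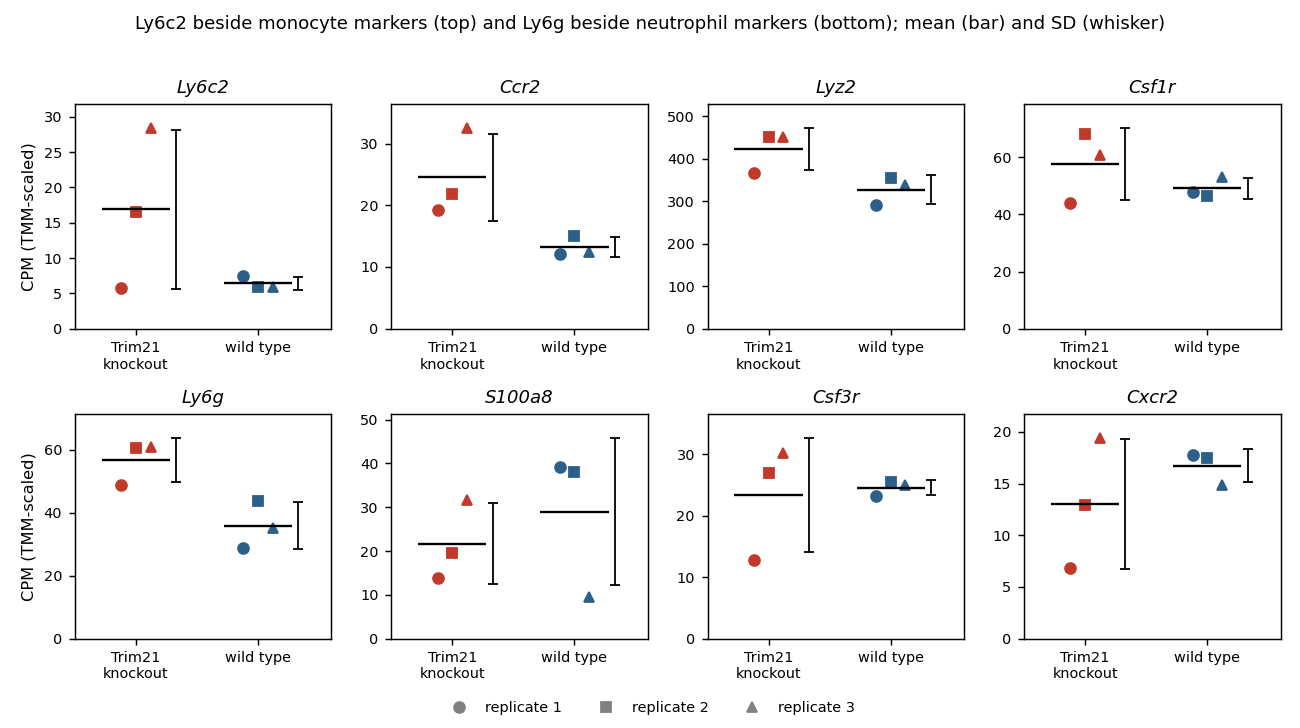
CPM (vertical axes, linear from 0) of Ly6c2 beside the monocyte genes Ccr2, Lyz2 and Csf1r (top) and of Ly6g beside the neutrophil genes S100a8, Csf3r and Cxcr2 (bottom) in Trim21 knockout and wild-type libraries, with mean (bar) and SD (whisker). Ly6g lies above wild type in all 3 knockout libraries, while S100a8, Csf3r and Cxcr2 overlap between the groups.

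All 3 knockout tumours had more Ly6g than the 3 wild-type tumours. Its product is the antigen by which mouse neutrophils are usually recognised. Ly6g measured 48.7, 60.6 and 60.8 CPM in knockout replicates 1 to 3, against 28.7, 43.7 and 35.1 CPM in wild-type replicates 1 to 3. The means were 56.7 ± 6.95 CPM in knockout libraries, against 35.8 ± 7.52 CPM in wild-type libraries (SD, n = 3 each). This was a log2 fold change of 0.66 (standard error 0.18), or 1.58-fold higher, and Ly6g was not called (edgeR adjusted p = 0.345). Ly6g was the only Ly6 gene of the 7 tested above wild type in every library, as were 9.43% of all tested genes.

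Neutrophil genes mostly had values on the other side of 0. Of 14 tested, 11 had a log2 fold change below 0, with a median of −0.34, and 0 were called. S100a8, which encodes a subunit of the abundant neutrophil protein calprotectin, measured 13.9, 19.5 and 31.8 CPM in knockout replicates 1 to 3 and 39.3, 38.02 and 9.56 CPM in wild-type replicates 1 to 3. The granulocyte growth factor receptor gene Csf3r measured 12.8, 27.02 and 30.3 CPM in knockout libraries, against 23.2, 25.5 and 25.02 CPM in wild-type libraries. The chemokine receptor gene Cxcr2 measured 6.84, 12.9 and 19.4 CPM in knockout libraries, against 17.7, 17.5 and 14.9 CPM in wild-type libraries. Knockout replicate 1 was thus the lowest of the 6 libraries for Csf3r and Cxcr2 and had more Ly6g than any wild-type library. Cd177, a further gene of the same protein domain known from neutrophils, measured 197, 145.8 and 180.2 CPM in knockout libraries, against 84.7, 239 and 161 CPM in wild-type libraries, with overlapping groups. The groups did not overlap in the summed level of 12 mature colonocyte genes. It was 1662, 1469 and 1806 CPM in knockout libraries, against 869, 1026 and 1327 CPM in wild-type libraries. Of these genes 6, or 50%, lay above wild type in every knockout library, against 9.43% of all tested genes. The most abundant of them, Krt20, Emp1 and Car1, overlapped between the groups. The sum over 10 smooth muscle genes likewise did not overlap, with 1520.3, 941 and 1085 CPM in knockout libraries, against 343, 855 and 617 CPM in wild-type libraries. Of these genes 6, or 60%, lay above wild type in every knockout library, while the muscle marker Des overlapped. As for Ly6g, the knockout libraries were the higher ones in both sums. All 10 fibroblast genes tested had a log2 fold change above 0, but their sums overlapped between the groups. The part of these cells and tissues in the Ly6g level was not tested.

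Promoters are shown for Ly6c1, Ly6c2 and Ly6g, the 3 of the 8 genes matched in the RefSeq promoter table (GRCm38.p6), because these neighbours resemble each other in sequence and differed in level. Each is the 250 bases before an annotated start, 5′ to 3′ on the strand of the gene, with matches to TATAAA and CCAAT on either strand in capitals. These 2 motifs do not overlap each other and were chosen after the sequences were seen.
Ly6c1 (chr15:75048838-75049087, minus strand): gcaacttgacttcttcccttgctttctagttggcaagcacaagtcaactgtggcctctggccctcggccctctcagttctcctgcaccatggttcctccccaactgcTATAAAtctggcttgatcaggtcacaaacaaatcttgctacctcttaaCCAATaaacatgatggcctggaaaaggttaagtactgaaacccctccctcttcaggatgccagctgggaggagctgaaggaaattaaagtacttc
Ly6c2 (chr15:75111972-75112221, minus strand): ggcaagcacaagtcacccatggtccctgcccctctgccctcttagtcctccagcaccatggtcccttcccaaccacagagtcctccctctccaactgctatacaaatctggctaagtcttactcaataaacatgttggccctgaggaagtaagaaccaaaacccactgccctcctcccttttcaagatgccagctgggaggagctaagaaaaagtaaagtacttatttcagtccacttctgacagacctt
Ly6g (chr15:75155011-75155260, plus strand): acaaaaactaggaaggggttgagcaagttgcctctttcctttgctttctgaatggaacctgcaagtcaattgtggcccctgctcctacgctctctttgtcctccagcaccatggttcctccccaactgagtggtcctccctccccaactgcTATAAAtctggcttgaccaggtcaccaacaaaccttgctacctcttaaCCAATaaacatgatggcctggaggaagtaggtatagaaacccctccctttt
Ly6c1 and Ly6g each held TATAAA and CCAAT once, at positions −143 and −95 from the start in Ly6c1 and at −99 and −51 in Ly6g. These letters were not in the Ly6c2 window. The table holds a second start for each gene, with a window that overlaps the first, so it is no separate observation. For Ly6g that window holds the same letters, at −167 and −119 from the second start. For Ly6c1 it begins past them, and for Ly6c2 it holds neither motif. Among all 32851 promoter windows of the table, 12.4% held TATAAA and 33.8% held CCAAT in the 250 bases before the start. The aligned bases of the Ly6c1 and Ly6g windows were 83.5% identical, against 75.9% for Ly6c1 with Ly6c2 and 80.3% for Ly6c2 with Ly6g. The core of the interferon-stimulated response element (GAAA, any 2 bases, GAAA) and the gamma-activated site TTCNNNGAA, searched on both strands, were not found in any window of these 3 genes, while 3.44% and 8.30% of all windows of 300 bases held them.

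Ly6k and Ly6i were near the limit of detection. Ly6k, which is expressed mainly in testis and takes part in sperm migration in the mouse, had 6, 9 and 20 reads in knockout replicates 1 to 3 and 16, 20 and 45 reads in wild-type replicates 1 to 3. In CPM this was 0.298, 0.494 and 1.03 in the knockout and 0.537, 0.677 and 1.67 in the wild type, so the groups overlapped. Its log2 fold change of −0.65 (standard error 0.66) rested on wild-type replicate 3, without which it was −5.7e-05. Ly6i had 1, 7 and 4 reads in the knockout and 20, 11 and 3 reads in the wild type, which is 0.0496 to 0.384 CPM in the knockout and 0.111 to 0.671 CPM in the wild type. These counts are too few to set the groups apart, and no fold change is given.

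The remaining LU-domain genes were taken from a list of 37, of which 36 were in the count tables, 8 had no read in any library and 17 were tested. Of these 17, 9 had a log2 fold change above 0 and 8 below 0, the median was 0.004, and 0 were called, against 0% of all genes. In 4 of the 17, or 23.5%, every knockout library lay above every wild-type library, against 9.43% of all tested genes, and in 0 of the 17 below, against 8.47%. The 4 were Lypd8, Cd59a, Spaca4 and Ly6g6e, with adjusted p between 0.406 and 0.447.

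Lypd8 exceeded all 8 genes in level per length, with means of 3300.2 RPKM in knockout and 2389 RPKM in wild-type tumours. Its product is secreted onto the colonic surface and keeps flagellated bacteria away from the epithelium. Lypd8, on chromosome 11 at 58379043 to 58390728, measured 3308, 4490.5 and 4914 CPM in knockout replicates 1 to 3, against 3250.3, 3035 and 2917 CPM in wild-type replicates 1 to 3. The lowest knockout library stood just above the highest wild-type library, and the log2 fold change was 0.47 (standard error 0.16). Cd59a, which encodes an inhibitor of the complement attack complex, measured 12.1, 11.5 and 15.8 CPM in knockout libraries, against 5.53, 8.84 and 10.4 CPM in wild-type libraries, with a log2 fold change of 0.67 (standard error 0.26). Spaca4, known from the sperm acrosome, measured 9.52, 8.40 and 10.2 CPM in knockout libraries, against 3.35, 6.33 and 6.71 CPM in wild-type libraries. Ly6g6e measured 9.87, 10.3 and 14.3 CPM in knockout libraries, against 6.94, 8.16 and 8.93 CPM in wild-type libraries.

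The other 13 family genes tested overlapped between the groups. Ly6m, which lies between Ly6k and Ly6e in the RefSeq annotation, measured 76.5, 134 and 92.2 CPM in knockout libraries, against 93.9, 143 and 211 CPM in wild-type libraries, with a log2 fold change of −0.56 (standard error 0.32). Lynx1, the neighbour of Ly6d and a modulator of nicotinic receptors, measured 11.3, 10.5 and 10.5 CPM in knockout libraries, against 10.1, 8.46 and 18.98 CPM in wild-type libraries. The log2 fold change of Lynx1 was −0.22, against −1.13 for Ly6d. Plaur, the urokinase receptor gene, measured 12.3, 12.9 and 19.4 CPM in knockout libraries, against 23.9, 14.1 and 17.8 CPM in wild-type libraries. Ly6g5b, Ly6g2, Lypd1 and Lypd6b had log2 fold changes of 0.004, 0.09, −0.08 and 0.03. Of the family genes too low to test, Lypd3 had 0, 0 and 1 reads in the knockout and 12, 2 and 4 reads in the wild type, and Ly6g6f had 4, 2 and 2 reads in the knockout and 0 in each wild-type library. Both were named after their values were seen. Psca, likewise named after its values were seen, had 245 reads in wild-type replicate 3, the library with Krt5 and Trp63. It had 0 to 2 reads in each of the other 5 libraries. Of the genes of GPI anchor synthesis, attachment and later processing, 28 were tested and 0 were called, with a median log2 fold change of 0.03.

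**Figure D4:**
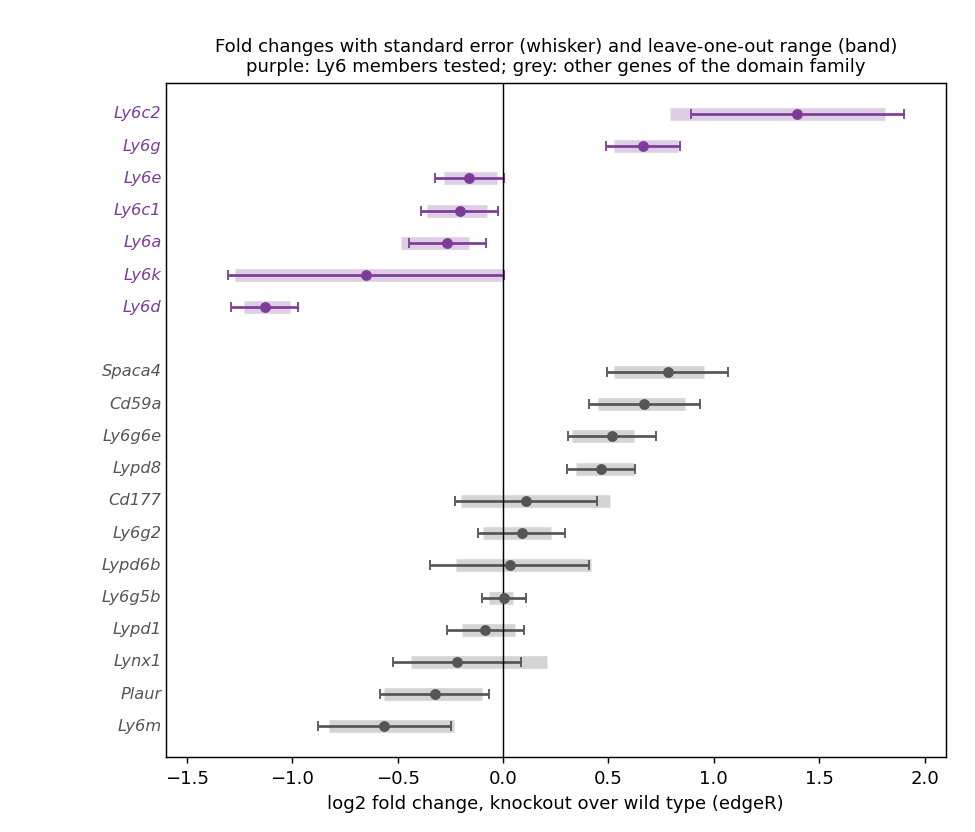
Log2 fold change, knockout over wild type (horizontal axis), of the 7 tested Ly6 genes (top, purple) and of 12 other genes of the LU-domain family (bottom, grey), with the standard error as a whisker and the range over the omission of each library as a band. Ly6d at −1.13 and Ly6c2 at 1.40 are the extremes, and the band of Ly6c2 spans 0.79 to 1.81.

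**Figure D5:**
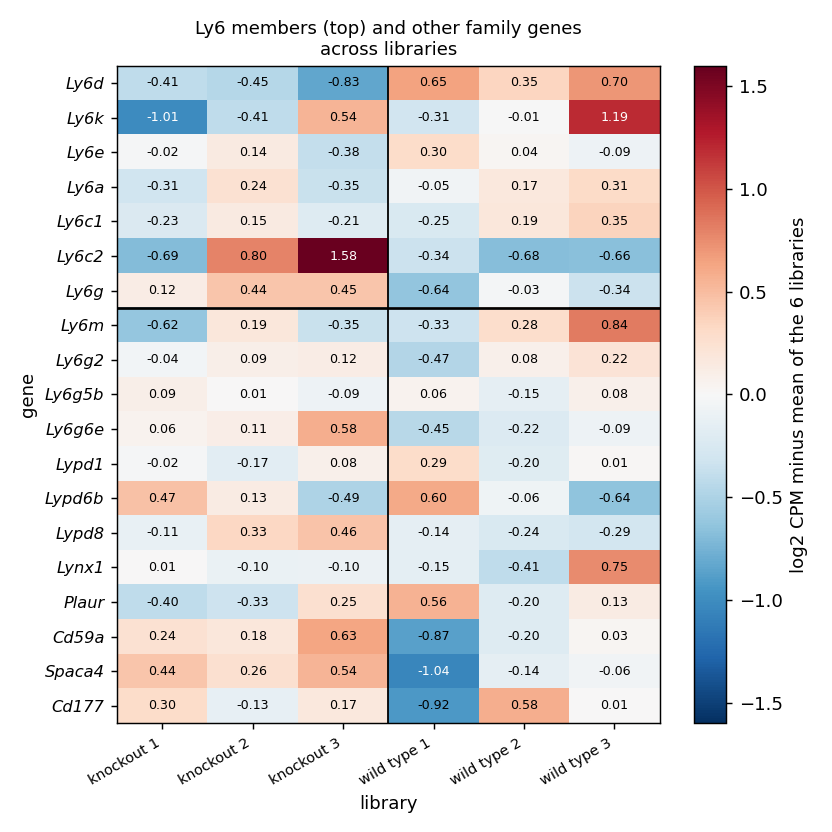
Log2 CPM minus the mean of the 6 libraries (colour and printed value) for the tested Ly6 genes (above the line) and other family genes (below it), by library, with knockout libraries on the left. The row of Ly6d is below 0 in all knockout and above 0 in all wild-type libraries, and the row of Ly6c2 is above 0 only in knockout replicates 2 and 3.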

How the data were processed

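Ribosome-depleted total RNA was sequenced from colon tumours of 3 Trim21 knockout and 3 wild-type samples. The authors deposited whole-number read counts per gene symbol. The mm10 build, TopHat2, edgeR and limma are named, per the submitters' processing notes, with no version or role. The read counter, annotation, strand handling and treatment of reads that match several genes were not given in the sources used here. From these counts, edgeR 4.0.16 in R 4.3.3 was run with TMM factors, filterByExpr and group as the only term. The two-sided p-values were adjusted over 16281 genes by Benjamini-Hochberg, with a threshold of 0.05. A standard error is the size of a log2 fold change divided by the square root of F. CPM and RPKM were computed here, with RPKM taken over the exons of protein-coding transcripts in GENCODE M21. Log2 CPM used a prior count of 2.

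The members and lists were chosen with earlier results of these data known. All 8 members were named, then family genes with a mean of at least 5 CPM, with the 5 of smallest unadjusted p among those of at least 1 CPM, which together gave 12 genes. From other lists the defining and most abundant genes were eligible. Alternatives were DESeq2 1.42.0, limma-voom (limma 3.58.1), the omission of single libraries, a block for the replicate number, and other scalings and filters. The test was checked on simulated counts of 16055 genes, where 48% of genes with a log2 fold change of 1 and 96% of those with 2 were called. The changes were placed only in genes with a mean of at least 2 CPM, so these shares do not cover lower genes such as Ly6k.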

Additional observations from a re-analysis of the deposited data

How the results depend on the processing

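For 6 of the 7 tested Ly6 genes the direction held in every alternative run, while Ly6k had no direction without wild-type replicate 3 (−5.7e-05). Their side of the threshold held except for Ly6d, which DESeq2 called (log2 fold change −1.13, adjusted p = 8.82e-07). Ly6g lay just past the threshold in DESeq2 (adjusted p = 0.0535), followed by Ly6c2 (DESeq2 adjusted p = 0.0953). The other tested Ly6 genes had DESeq2 adjusted p of 0.689 or more. DESeq2 called 335 genes in all, 242 higher and 93 lower, that is 1.41% and 0.543% of those it tested. The edgeR and limma-voom alternatives with all 6 libraries called 0, as did the replicate block, and leaving out single libraries gave 0 to 1 genes, with the 1 gene called without wild-type replicate 3. Same-numbered samples did not deviate together (correlations −0.147, −0.175 and −0.0734). The labels do not say whether equal numbers pair samples, and correlations over so few libraries cannot exclude it. With the replicate block Ly6d had −1.13 (edgeR adjusted p = 0.588). Leaving out libraries turned the direction of 6 family genes with values near 0: Ly6g2 (−0.0946 to 0.23), Ly6g5b (−0.065 to 0.0464), Lypd1 (−0.19 to 0.0546), Lypd6b (−0.22 to 0.42), Lynx1 (−0.43 to 0.21) and Cd177 (−0.20 to 0.51). In the 250 bases before the start alone, 2.98% of promoters held the response element core and 7.02% held TTCNNNGAA. Ly6k was not tested with a filter of CPM of at least 1 in 3 libraries. Depth limits Ly6k and Ly6i. No omission moved Ly6d beyond −1.23 to −1.01.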
